A study of Mus musculus with 6 samples.

Results

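The genes described here are 7 plexins (Plxna1, Plxna2, Plxna3, Plxna4, Plxnb2, Plxnc1 and Plxnd1), the neuropilins Nrp1 and Nrp2, and the semaphorin Sema4d. They are 10 of the 22180 genes measured in the mouse line Raw 264.7, whose cells the labels call monocytes and which is widely used as a macrophage line. They were chosen by gene symbol, from probe sets annotated to exactly 1 symbol, and with earlier results of these arrays known. Where a gene had more than 1 probe set, its main value was selected on the highest mean over the 6 arrays. Plxna1 had 2 probe sets and each other member had 1, so 11 probe sets stand behind the 10 genes. Both remaining plexins, Plxnb1 and Plxnb3, were measured too and are given with the other genes of the pathway.

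Cells were starved and then kept in medium with 2% serum, with 50 ng/ml of the cytokine IL-33 for 3 arrays, or with PBS as the control for the other 3 arrays. No source used here gives the time of treatment. The authors deposited 1 RMA value per probe set and array, on the log2 scale. Groups follow the sample titles, with which the descriptions conflict: they hold array names with IL for the PBS samples and with P for the IL-33 samples. Should the titles be the wrong ones, each difference given here has the opposite sign. Over genes, 2 arrays correlated at 0.9972 or more within a group and at 0.9971 or less between groups. IL-33 replicate 1 stood apart on the second principal component (16.7% of the variance). Separate cultures are not stated for the samples of a group, so the p-values reflect a spread between samples that may be technical.

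Plexins are large single-pass membrane receptors whose cytoplasmic part is a GTPase-activating domain for small GTPases of the Ras and Rap family. Semaphorins are their ligands. Membrane-bound semaphorins of classes 4 to 7 bind plexins directly, whereas most secreted class 3 semaphorins bind a neuropilin, which pairs with a class A plexin to pass the signal on. The system is best known for steering axons and blood vessels. In myeloid cells it is known for effects on migration, adhesion and osteoclast formation, and Raw 264.7 cells are themselves able to form osteoclasts.

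Plxna1 was the one member that passed the test over all genes (limma, adjusted p under 0.05), and passing depended on the arrays used. Its main probe set was lower in the IL-33 arrays by 1.52-fold, and its 2 probe sets each had all 3 IL-33 values below all 3 PBS values. Plxna2 and Sema4d had lower IL-33 values, and Plxnb2, Plxnc1 and Nrp1 had higher ones, in each case without overlap between the groups but without passing the test over all genes. Plxna3, Plxna4, Plxnd1 and Nrp2 had overlapping groups. These differences are of bulk RNA, in which fewer cells of a type and less RNA per cell cannot be told apart.

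Called here means an adjusted p under 0.05 in limma, with Benjamini-Hochberg adjustment over all genes, and 1 of the 10 members was called, as lower. Of all genes, 0.591% were called in either direction and 0.316% were called lower. In 6 members the 2 groups were fully apart, with IL-33 higher in 3 and lower in 3. Of all genes, 10.3% had higher and 10.1% had lower IL-33 values without overlap. The median log2 difference (IL-33 minus PBS throughout) was -0.02 over the members and -0.01 over all genes. The median size of the difference, regardless of sign, was 0.14 over the members and 0.073 over all genes. Since the members were picked with earlier results known, these counts describe them and carry no test of the family.

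**Figure D1:**
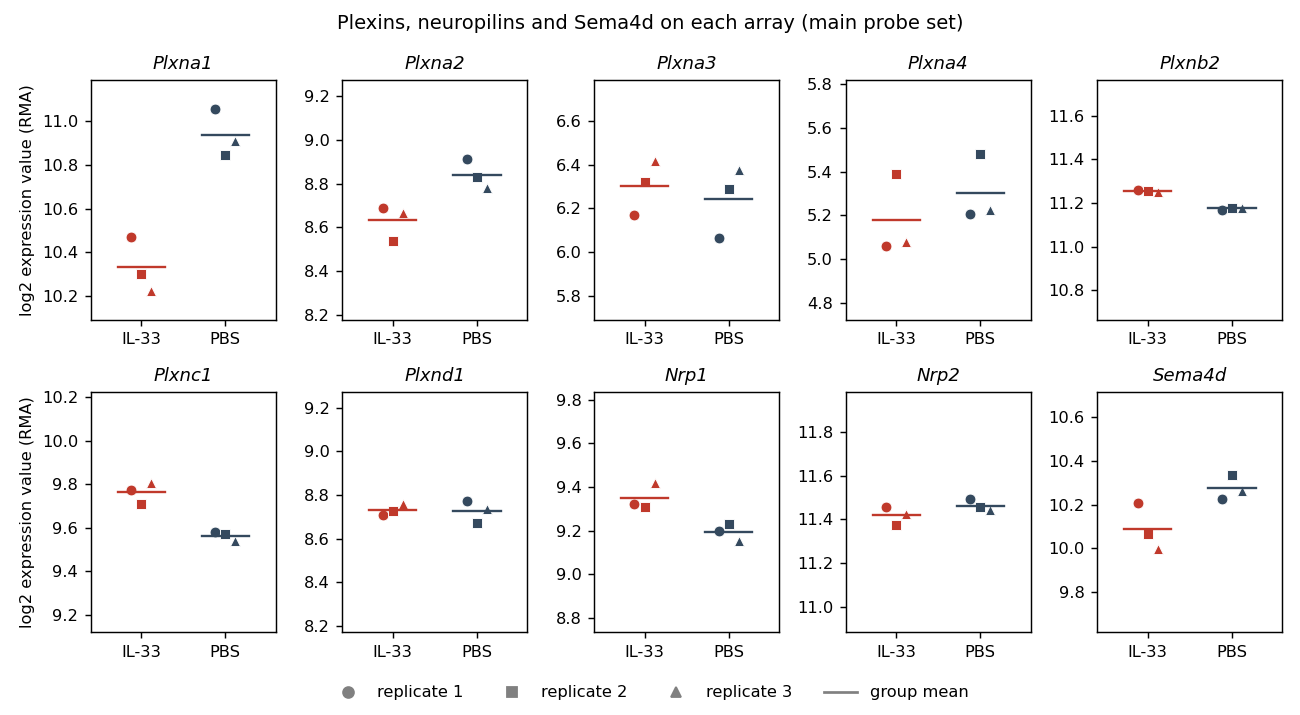
Deposited log2 values of the 10 genes on each of the 6 arrays, with IL-33 arrays in red at the left and PBS arrays in dark blue at the right. Symbols mark the replicate number, lines are group means, and every panel spans the same range of log2 units. The 3 red points of Plxna1 sit between 10.23 and 10.47, below the PBS points at 10.85 to 11.06. Those of Plxnd1 sit among the PBS points. In Nrp2 only IL-33 replicate 1, at 11.46, reaches the range of the PBS points, 11.44 to 11.49.

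Promoter sequences were taken from RefSeq (build GRCm38.p6) for 8 of the 10 members, in 11 entries. Plxna1 and Plxna4 were not among them. The 250 bases before each start were searched on both strands for 5 motifs, a search widened from the called members to all matched members after values were seen. The first was GGGNNTTCC (NF-kB), held by 5.0% of all 32851 promoters, and the others were TGANTCA (AP-1, 6.7%), GAAANNGAA (the core of the interferon-stimulated response element, 7.1%), TTCNNNGAA (GAS, 7.0%) and GAGGAA (PU.1, 23.3%). The promoters below are of the members with 1 entry, groups without overlap and an unadjusted p under 0.05 in limma. They are shown to set 2 members with higher values in the IL-33 arrays, Plxnc1 and Nrp1, beside 1 with lower values, Plxna2. These members were not called, and so few promoters cannot relate a motif to a direction. Each promoter runs from 250 bases before the start up to the start, along the gene, and capitals mark motif matches.
Plxnc1: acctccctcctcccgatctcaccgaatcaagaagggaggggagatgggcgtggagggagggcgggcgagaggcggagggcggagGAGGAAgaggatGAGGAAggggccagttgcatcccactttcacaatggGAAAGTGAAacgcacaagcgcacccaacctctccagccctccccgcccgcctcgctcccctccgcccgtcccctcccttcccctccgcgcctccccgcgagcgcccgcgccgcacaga
Nrp1: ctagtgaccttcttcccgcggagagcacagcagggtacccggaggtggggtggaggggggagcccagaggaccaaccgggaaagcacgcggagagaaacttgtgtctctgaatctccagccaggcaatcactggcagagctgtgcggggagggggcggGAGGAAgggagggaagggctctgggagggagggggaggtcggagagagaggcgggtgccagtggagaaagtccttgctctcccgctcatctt
Plxna2: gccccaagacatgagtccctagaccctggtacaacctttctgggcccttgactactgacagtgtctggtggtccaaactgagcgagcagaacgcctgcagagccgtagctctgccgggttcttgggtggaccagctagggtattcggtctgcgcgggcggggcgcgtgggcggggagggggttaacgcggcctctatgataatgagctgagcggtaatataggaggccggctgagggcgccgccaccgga

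The Plxnc1 promoter lies at chr10:94944846-94945095 on the minus strand, the Nrp1 promoter at chr8:128358823-128359072 on the plus strand, and the Plxna2 promoter at chr1:194619579-194619828 on the plus strand. The Plxnc1 window held the interferon element as GAAAGTGAA at -118 to -110, counted from the start with -1 as the last base before it, and GAGGAA at -166 to -161 and at -154 to -149. The Nrp1 window held GAGGAA at -92 to -87. The Plxna2 window held no match of the 5 motifs. Among the others, Plxnd1, whose groups overlapped, held the same set as Plxnc1, with the interferon element at -242 to -234 and GAGGAA at -204 to -199 and at -181 to -176. Matches were also found for the NF-kB letters in 1 of 2 Plxnb2 entries and the AP-1 letters in 1 of 3 Sema4d entries. No match of one motif overlapped a match of another in these windows. A match describes letters in this window, and binding was not measured.

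Plxna1 encodes plexin-A1, a class A plexin that pairs with neuropilins and, in dendritic cells and osteoclasts, with the Trem2 receptor and its adaptor Tyrobp (DAP12), where Sema6d is its ligand. Its main probe set had log2 values of 10.47, 10.30 and 10.23 in the IL-33 arrays, against 11.06, 10.85 and 10.91 in the PBS arrays. The highest IL-33 array, replicate 1, was still 0.38 below the lowest PBS array, a gap wider than the range within either group (0.25 and 0.21). The means were 10.33 ± 0.13 in IL-33 arrays and 10.94 ± 0.11 in PBS arrays (SD, n = 3 each). The log2 difference was -0.61 ± 0.09 (SE), with a 95% interval of -0.81 to -0.41 and an adjusted p of 0.0397 (limma). Plxna1 ranked 105 of 22180 genes by p, and 131 genes were called.

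The other probe set of Plxna1 gave the same direction with a smaller difference. Its values were 7.59, 7.45 and 7.37 in the IL-33 arrays, against 8.15, 7.83 and 7.80 in the PBS arrays. As in the main probe set, IL-33 replicate 1 was the highest IL-33 array and PBS replicate 1 the highest PBS array. Its log2 difference was -0.46 ± 0.11 (SE), with a 95% interval of -0.71 to -0.21 and an adjusted p of 0.146 (limma over all 23521 probe sets with 1 symbol). The 2 intervals overlap, and the difference between the probe sets was not tested. The 2 probe sets correlated at r = 0.963 over the 6 arrays, which share the group difference.

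The call of Plxna1 depended on the arrays and on the features tested with it. Its log2 difference stayed between -0.68 and -0.55 when any 1 array was left out, and the adjusted p was then 0.0420 without IL-33 replicate 1 but 0.0881 to 0.177 without any other array (limma). With the mean of both probe sets the log2 difference was -0.53 with an adjusted p of 0.073. Among all 41155 probe sets that are not controls the adjusted p was 0.165 (limma). Of 9 alternatives that used all 6 arrays, 6 kept the call, with adjusted p from 0.00022 to 0.0428 (limma). The count of all calls moved too. It was 131 as reported, 15 to 83 without 1 array, 127 with the mean of all probe sets and 17 among all probe sets.

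**Figure D2:**
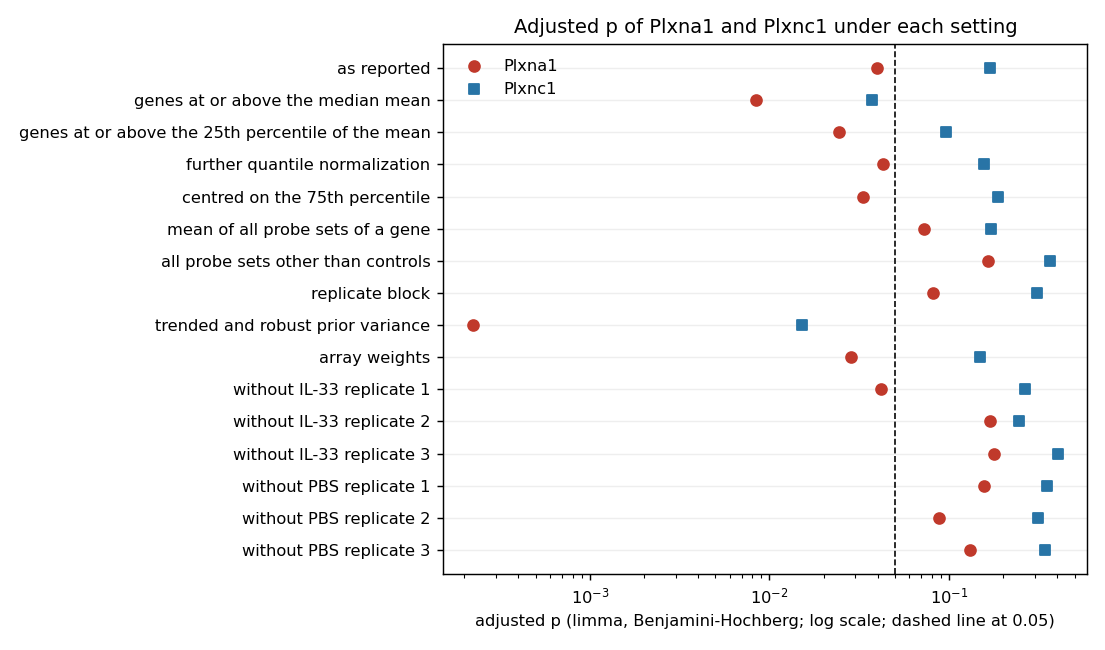
Adjusted p (limma, log axis) of Plxna1 (red circles) and Plxnc1 (blue squares) as reported and under each of 15 other settings, with a dashed line at 0.05. Plxna1 lies below 0.05 in 7 of the 15 and Plxnc1 in 2 of them, namely genes at or above the median mean and the trended and robust prior variance.

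The genes whose values were most like those of Plxna1 were Lat, Dusp1 and Ampd3. Of 19233 other genes compared, they had the highest Pearson r to the main probe set over the 6 arrays. Lat, an adaptor protein of T cell receptor signalling, had r = 0.997. Its values were 7.21, 7.04 and 6.96 in the IL-33 arrays, against 7.73, 7.54 and 7.54 in the PBS arrays. Dusp1, a phosphatase that switches off MAP kinases, had r = 0.996 and values of 10.65, 10.47 and 10.39 in the IL-33 arrays, against 11.22, 11.10 and 11.14 in the PBS arrays. Ampd3, an AMP deaminase, had r = 0.995 and values of 10.44, 10.31 and 10.26 in the IL-33 arrays, against 10.92, 10.80 and 10.88 in the PBS arrays. In all 3 genes, as in Plxna1, IL-33 replicate 1 was the highest IL-33 array and replicate 3 the lowest. They were chosen by r over these same arrays, so the shared order is no further evidence of likeness. An r of at least 0.95 was shared by 303 genes over these 6 arrays, which fall into 2 groups.

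**Figure D3:**
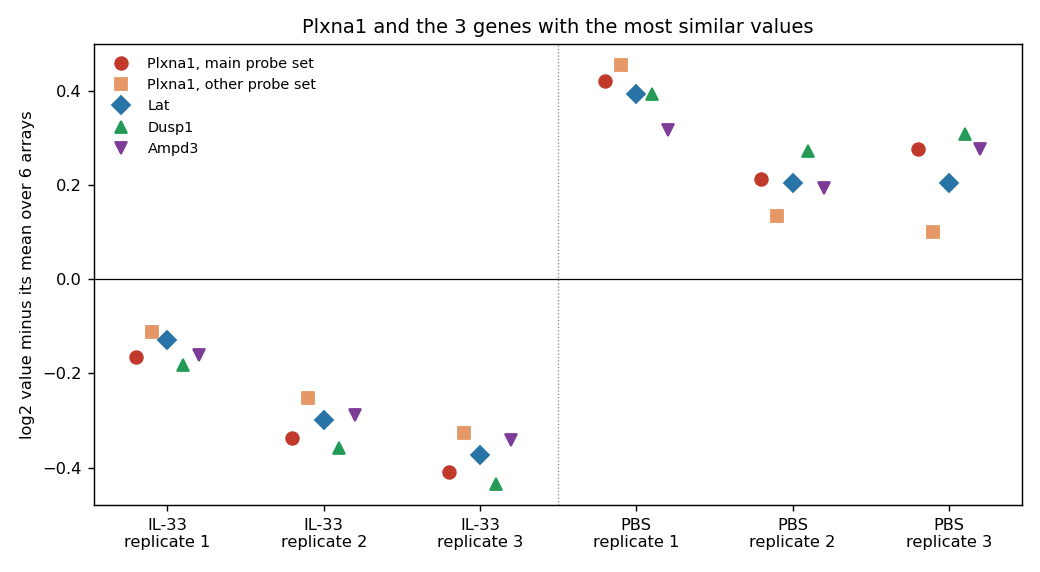
Log2 value minus its own mean over the 6 arrays, for both probe sets of Plxna1 and for Lat, Dusp1 and Ampd3, with the IL-33 arrays at the left. In the main probe set of Plxna1 the IL-33 arrays lie 0.16 to 0.41 below the mean and the PBS arrays 0.21 to 0.42 above it.

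None of the partners of plexin-A1 was called. Trem2, a lipid-sensing receptor of myeloid cells, had values of 11.08, 10.98 and 11.07 in the IL-33 arrays, against 11.17, 11.20 and 11.16 in the PBS arrays. The groups did not overlap, and the log2 difference of -0.13 had an adjusted p of 0.340 (limma). Tyrobp, the signalling adaptor of Trem2, had overlapping groups and a log2 difference of -0.04 with a 95% interval of -0.17 to 0.10. Sema6d had values of 6.33, 6.03 and 5.99 in the IL-33 arrays, against 5.84, 5.89 and 5.89 in the PBS arrays. All 3 IL-33 arrays were above the PBS arrays, with replicate 1 the highest, and the log2 difference of 0.24 had an adjusted p of 0.335 (limma). Tyrobp and Sema6d were picked for their role after their values were seen.

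Of the other class A plexins, Plxna2 had the larger difference. It encodes plexin-A2, a receptor of class 6 semaphorins. Its values were 8.69, 8.54 and 8.67 in the IL-33 arrays, against 8.91, 8.83 and 8.78 in the PBS arrays. The groups were 0.09 apart, less than the range within the IL-33 arrays (0.15). The log2 difference of -0.21 ± 0.06 (SE) had a 95% interval of -0.36 to -0.06 and an adjusted p of 0.237 (limma). A fall as large as that of Plxna1 in the main probe set lies outside this interval.

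Plxna3, the plexin that pairs with Nrp2 for Sema3f, had values of 6.17, 6.32 and 6.42 in the IL-33 arrays, against 6.06, 6.29 and 6.38 in the PBS arrays. The groups overlapped almost wholly, and the log2 difference was 0.06 with a 95% interval of -0.18 to 0.29. Plxna4, which pairs with Nrp1 for Sema3a, had values of 5.06, 5.39 and 5.08 in the IL-33 arrays, against 5.20, 5.48 and 5.22 in the PBS arrays. Replicate 2 was the highest array in both groups, and the groups overlapped. The log2 difference was -0.13 with a 95% interval of -0.40 to 0.14. Plxna4 was the only member whose mean over the arrays, 5.24, lay below the median of all genes, 5.75, and the files hold no detection calls that would say whether it was expressed.

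Plxnb2 encodes plexin-B2, a receptor of class 4 semaphorins. Its values were 11.26, 11.26 and 11.25 in the IL-33 arrays, against 11.17, 11.18 and 11.18 in the PBS arrays. The SD was 0.0036 in the IL-33 arrays and 0.0046 in the PBS arrays (n = 3 each), and the gap of 0.075 between the groups was about as large as the whole difference. The log2 difference of 0.08 ± 0.04 (SE) had an adjusted p of 0.497 (limma). That SE rests mostly on the spread of other genes, since limma moved the pooled SD of Plxnb2 to 0.055 from the measured 0.0041.

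Plxnc1 encodes plexin-C1, the receptor of Sema7a, which is known for effects on the adhesion and migration of myeloid cells. Its values were 9.77, 9.71 and 9.81 in the IL-33 arrays, against 9.58, 9.57 and 9.54 in the PBS arrays. The lowest IL-33 array was 0.13 above the highest PBS array, more than the range within either group. The log2 difference of 0.20 ± 0.05 (SE) had a 95% interval of 0.08 to 0.32 and an adjusted p of 0.169 (limma). It passed when only the 11090 genes at or above the median mean were tested (adjusted p of 0.0371), and with a prior variance trended on level and robust to outliers (adjusted p of 0.0151), settings that called 6.85% and 4.51% of the genes they tested (limma). Its ligand Sema7a, picked for its role after its values were seen, had values of 6.02, 5.78 and 5.85 in the IL-33 arrays and of 5.82, 5.74 and 5.92 in the PBS arrays, which overlapped.

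Plxnd1 encodes plexin-D1, the receptor of Sema3e, which binds it without a neuropilin. Its values were 8.71, 8.72 and 8.76 in the IL-33 arrays, against 8.77, 8.67 and 8.73 in the PBS arrays. The groups overlapped, and the log2 difference of 0.005 had a 95% interval of -0.12 to 0.13. Its sign turned under 2 other scalings and without either of 2 arrays, so no direction can be given. Sema3e, picked for its role after its values were seen, differed by -0.12 with a 95% interval of -0.27 to 0.04 (log2).

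**Figure D4:**
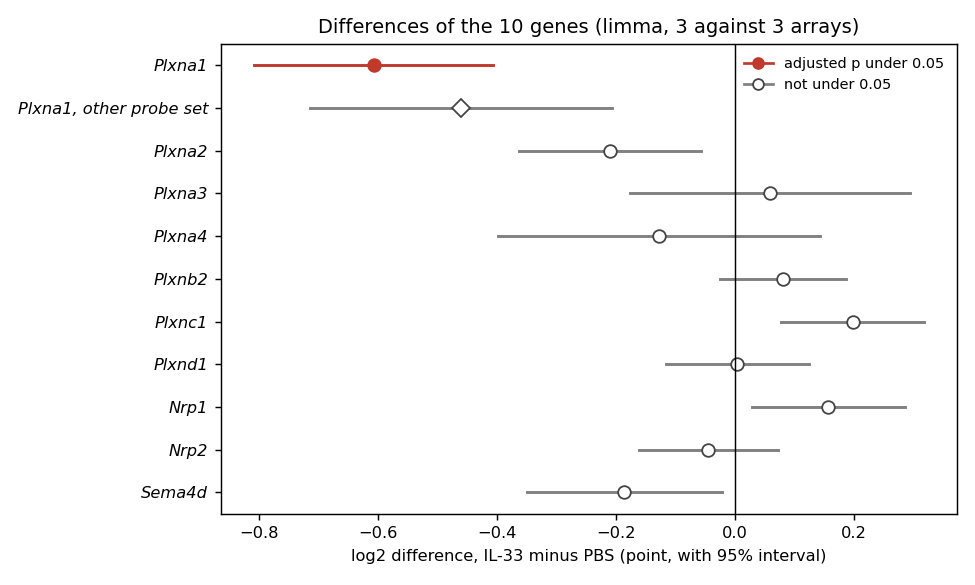
Log2 difference (IL-33 minus PBS) of each member with its 95% interval from limma, 3 against 3 arrays, and of the other Plxna1 probe set (diamond). Red marks an adjusted p under 0.05. The intervals of Plxna1, Plxna2 and Sema4d lie below 0, those of Plxnc1 and Nrp1 lie above it, and the others cross it.

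The neuropilins are co-receptors with short cytoplasmic tails that bind class 3 semaphorins and members of the VEGF family. Nrp1 had values of 9.32, 9.31 and 9.42 in the IL-33 arrays, against 9.20, 9.23 and 9.15 in the PBS arrays. The groups were 0.08 apart, less than the range within the IL-33 arrays (0.11). The log2 difference of 0.16 ± 0.05 (SE) had a 95% interval of 0.03 to 0.29 and an adjusted p of 0.287 (limma). Nrp2 had values of 11.46, 11.38 and 11.42 in the IL-33 arrays, against 11.49, 11.46 and 11.44 in the PBS arrays. Its groups overlapped, and its log2 difference of -0.04 had a 95% interval of -0.16 to 0.07.

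Sema4d encodes a membrane-bound semaphorin of lymphocytes, myeloid cells and osteoclasts that can be shed by proteases. Plexin-B1 is its best known receptor, and Sema4d from osteoclasts is known to restrain bone-forming osteoblasts through it. Its values were 10.21, 10.07 and 10.00 in the IL-33 arrays, against 10.23, 10.34 and 10.26 in the PBS arrays. The groups did not overlap, but IL-33 replicate 1 was only 0.02 below the lowest PBS array. The log2 difference of -0.19 ± 0.07 (SE) had a 95% interval of -0.35 to -0.02 and an adjusted p of 0.321 (limma). It ranged from -0.24 to -0.14 when any 1 array was left out.

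None of the other listed genes of the semaphorin pathway passed over all genes, where 0.591% of all genes were called. At a share this low, lists of this size can hold no called gene without differing from other genes. Of Plxnb1, Plxnb3 and the plexin-domain proteins Plxdc1 and Plxdc2, none of 4 was called, with differences from -0.07 to 0.13 (log2). Plxnb1, the main receptor of Sema4d, had values of 4.52, 4.67 and 4.60 in the IL-33 arrays, against 4.64, 4.63 and 4.72 in the PBS arrays, and its other probe set had a difference of 0.11. Plxnb1 and Plxnb3 had the smallest p of these 4, at 0.312 and 0.235 before adjustment (limma). Their means over the 6 arrays, 4.63 and 5.02, lay below the median of all genes, 5.75. Of 19 other semaphorins 7 had a difference above 0, with a median of -0.02, and none was called.

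The semaphorins with the smallest p were Sema4b, a membrane-bound class 4 semaphorin, and Sema3g, a secreted class 3 semaphorin. Sema4b had values of 7.79, 7.81 and 7.73 in the IL-33 arrays, against 7.99, 7.99 and 8.06 in the PBS arrays. The groups did not overlap, and the log2 difference of -0.24 had an adjusted p of 0.119 (limma). Sema3g had values of 5.38, 5.60 and 5.49 in the IL-33 arrays, against 5.78, 5.70 and 5.85 in the PBS arrays. Its groups did not overlap either, and the log2 difference of -0.28 had an adjusted p of 0.172 (limma). The Sema3g mean over the 6 arrays, 5.63, lay below the median of all genes, 5.75.

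Of 5 VEGF family ligands of the neuropilins none was called. The median was -0.14, and 4 differences were below 0. Vegfa and Vegfb, both growth factors for blood vessels, had the smallest p, at -0.14 with an adjusted p of 0.431 for Vegfa and at -0.13 with an adjusted p of 0.393 for Vegfb (log2, limma). Of 14 co-receptors and alternative semaphorin receptors none was called, with a median of 0.01. Flt1, a VEGF receptor tyrosine kinase, had the smallest p, with values of 8.20, 7.98 and 8.16 in the IL-33 arrays, against 7.86, 7.83 and 7.84 in the PBS arrays. The groups did not overlap, and the log2 difference of 0.27 had an adjusted p of 0.168 (limma).

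Of 33 cytoplasmic effectors of plexins and neuropilins none was called, with 15 differences above 0 and a median of -0.01. Rnd1, a small GTPase that binds the cytoplasmic part of plexins, had values of 7.38, 7.47 and 7.36 in the IL-33 arrays, against 7.13, 7.06 and 7.07 in the PBS arrays. The groups did not overlap, and the log2 difference of 0.32 had an adjusted p of 0.0675 (limma). Arhgef12, a guanine nucleotide exchange factor that class B plexins recruit, had values of 7.86, 7.79 and 7.84 in the IL-33 arrays, against 8.07, 8.07 and 7.99 in the PBS arrays, with an adjusted p of 0.152 (limma). Of the 3 proteases that can shed Sema4d none was called. Adam10 and Adam17 differed by 0.12 and 0.11 (log2), with adjusted p of 0.460 and 0.435 (limma).

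**Figure D5:**
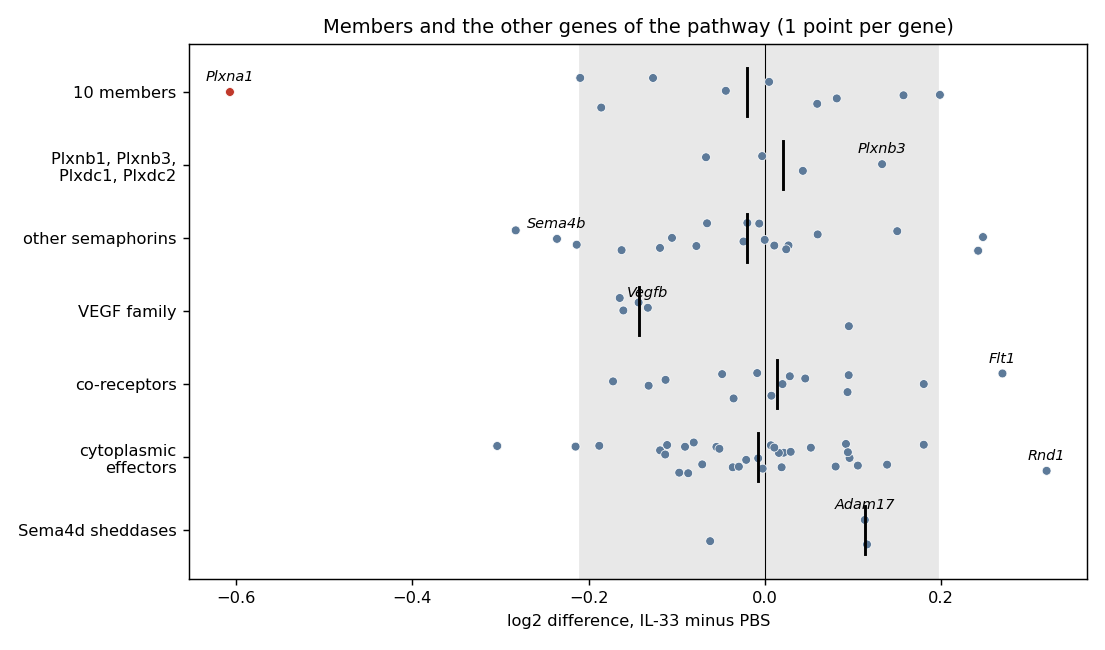
Log2 differences (IL-33 minus PBS) of the 10 members and of 6 lists of other pathway genes, 1 point per gene, with black bars at the list medians. The grey band runs from the 5th to the 95th percentile of all genes, -0.21 to 0.20, red marks an adjusted p under 0.05, and names mark the gene with the smallest p in each list. Plxna1 is the only red point, and the outermost listed genes lie at -0.30 and 0.32.

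The labels call the cells monocytes, and they were set against macrophage markers, many of which monocytes share. Of 11 macrophage markers 10 had means at or above the median of all genes, against 1 of 10 fibroblast, 2 of 10 endothelial, 2 of 10 neuronal and 0 of 8 lymphocyte markers. The mean over the macrophage markers was 11.06 to 11.12 in the IL-33 arrays and 11.04 to 11.07 in the PBS arrays. Of the 11, 6 had a difference above 0 and 5 below. Groups without overlap were higher in 4 and lower in 3, beside 10.3% and 10.1% of all genes. The IgG receptor gene Fcgr1 was called and rose by 0.49 on the log2 scale (adjusted p of 0.0448, limma), a call lost without any 1 array (adjusted p of 0.0699 to 0.204). Adgre1, an adhesion-class receptor used as a macrophage surface marker, had values of 10.73, 10.80 and 10.73 in the IL-33 arrays, against 10.98, 11.14 and 11.01 in the PBS arrays, with an adjusted p of 0.114 (limma). Cd68 and Cd14 also had lower values in the IL-33 arrays without overlap, with adjusted p of 0.830 and 0.795 (limma). Itgam, Ptprc and Cybb, like Fcgr1, had higher values in the IL-33 arrays without overlap. Their log2 differences were 0.09, 0.08 and 0.13, with adjusted p of 0.479, 0.567 and 0.346 (limma). The mean over the endothelial markers was 4.95 to 5.02 in the IL-33 arrays, against 5.04 to 5.08 in the PBS arrays, and over the neuronal markers it was 4.85 to 4.90, against 4.92 to 4.99. Both marker lists lie low on the scale, none of their genes was called, and their part in the results for the plexins and neuropilins was not tested. Log2 array values have no zero, so no marker can be called absent.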

How the data were processed

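Expression was measured on 6 whole-transcript arrays of Raw 264.7 cells, 3 titled IL-33 and 3 titled PBS. The authors deposited log2 values per probe set, made with RMA per the submitters' processing notes. No version or settings of it are known from the sources used here. RMA makes array distributions alike and compresses differences near the background and the top of the scale. Of 41345 probe sets, 23521 carried exactly 1 symbol in the platform annotation, 1814 carried several and 16010 were unnamed here. By Entrez ID, 23328 of these symbols matched a RefSeq table (GRCm38.p6) and 0 of them changed. The files name no genome build.

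Groups came from the sample titles. Each of 22180 genes was represented by its probe set with the highest mean over the 6 arrays and fitted in R 4.3.3 by limma 3.58.1 (lmFit, then eBayes, with 1 group coefficient and no filter). P-values were adjusted by Benjamini-Hochberg and called under 0.05. The fit was tested on simulated data. The members and lists were chosen with earlier results of these data known. By the naming rule all members were named, then called genes of each list or else up to 2 with the smallest p, and the 3 genes with the highest r to a called member. Macrophage markers other than Fcgr1 were named outside this rule. Listed genes without a probe set of 1 symbol were not analysed here. Arrays give no depth, so their number limits the precision. Replicate numbers are shared by the groups, but nothing states that they mark pairs. Figures were drawn with matplotlib 3.10.9.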

Additional observations from a re-analysis of the deposited data

How the results depend on the processing

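The counts of calls and the difference of each member were recomputed under 15 alternatives, of which 6 left out an array and 9 changed the filter, the scaling, the probe sets, the block, the prior variance or the array weights. The other probe set of Plxna1, the marker means and the markers Itgam, Ptprc and Cybb were not recomputed. The count of all genes called was 131 as reported, 760 among genes whose mean was no lower than the median, 296 among those at or above the 25th percentile, 17 over all probe sets other than controls, 21 with the replicate block and 1000 with the trended and robust prior variance, and it ran from 15 (without IL-33 replicate 2) to 83 (without IL-33 replicate 1) without 1 array. It was 19 without IL-33 replicate 3, and 19, 36 and 16 without PBS replicates 1, 2 and 3. The count of members called was 1 as reported, 2 with the median filter and with the trended and robust prior variance (Plxna1 and Plxnc1 in both), 0 with the mean of all probe sets, over all probe sets and with the replicate block, and from 0 to 1 without 1 array. Over the pathway lists, a count added after seeing the data, 0 genes were called as reported, 5 with the median filter (Sema4b, Flt1, Rnd1, Rnd2 and Arhgef12), 1 with the 25th percentile filter (Rnd1) and 6 with the trended and robust prior variance (Sema4b, Flt1, Rnd1, Rnd2, Fyn and Trem2). It was 0 without any 1 array.

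The Plxna1 log2 difference kept its sign in all 15 alternatives. It lost the call at -0.53 with the mean of all probe sets, at -0.61 over all probe sets, where 41155 features were tested, and at -0.61 with the replicate block (adjusted p of 0.0814, limma), and it ranged from -0.68 to -0.55 without 1 array. The Plxnc1 difference of 0.20 gained the call with the median filter and with the trended and robust prior variance. The Plxnd1 difference turned to -6e-04 with a further quantile normalization and to -0.012 with centring on the 75th percentile, and ranged from -0.0218 to 0.027 without 1 array. That of Plxna3 ranged from -0.0303 to 0.126 without 1 array and was below 0 without PBS replicate 1. For these 4 the cause was not tested. The other 6 members kept their direction and stayed uncalled in every alternative that tested them, and Plxna4 was not among the genes of the median filter. Deviations from the group means of same-numbered arrays correlated at 0.082, 0.088 and 0.022 over genes at or above the median mean. IL-33 replicates 1 and 2 each correlated best with the PBS array of the same number, and IL-33 replicate 3 with PBS replicate 2. The numbers were not taken as pairs, and these values do not settle whether they mark pairs.

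The same alternatives were run, after seeing the data, on 23 other named genes. Of 342 recomputed values, 301 kept their direction and their side of the threshold, 23 lost a call, 16 gained one and 2 changed sign. Sema7a ranged from -0.0086 (without IL-33 replicate 1) to 0.1106 without 1 array, and Plxnb1 was at 0.0234 with the mean of all probe sets. The lost calls were those of Dusp1, Ampd3 and Fcgr1. Dusp1 and Ampd3 each kept the call in 1 of the 6 fits without an array, the one without IL-33 replicate 1, and Fcgr1 in 0 of them.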

Other observations

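Plxnb2 had the second smallest spread within groups of all 22180 genes. Its pooled SD was 0.0041 (log2), rank 2 from the smallest, whereas the median over all genes was 0.093. Its groups were 0.08 apart in their means, 11.26 in the IL-33 arrays and 11.18 in the PBS arrays, and the prior SD of limma, 0.084, set the scale of its test. Of the other members, Nrp2, Plxnc1 and Plxnd1 ranked 1715, 2284 and 2464 by spread, and Plxna4 ranked 19006 with a pooled SD of 0.17.

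In Plxna4, whose values lay low on the scale, both replicate 2 arrays were the highest of their group, at 5.39 in the IL-33 arrays and 5.48 in the PBS arrays. In Plxna3 both replicate 1 arrays were the lowest of their group, at 6.17 in the IL-33 arrays and 6.06 in the PBS arrays.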
